A study of Mus musculus with 6 samples.

Results

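A set of 10 genes that drive cells through mitosis, of 13222 genes tested in all, was examined in tumour epithelial cells of benign mouse skin papillomas with and without Sox2. They are the cyclin genes Ccna2 and Ccnb2, the kinase genes Cdk1, Plk1, Aurka, Aurkb and Bub1, the phosphatase gene Cdc25c, the activator gene Cdc20 and the transcription factor gene Foxm1. The members were chosen by name, with earlier results of these data known. Every probe set annotated to exactly 1 of these symbols was taken, which gave 20 probe sets. Of these, 17 passed the filter on low values and were tested, and at least 1 of them belonged to each of the 10 genes. Expression was read on 6 Affymetrix Mouse Genome 430 2.0 arrays as log2 signal per probe set.

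The control group (CTRL) held 3 arrays of papillomas from control mice given tamoxifen for 1 week. The Sox2cKO group held 3 arrays of papillomas from K14CREER:SOX2fl/fl mice given tamoxifen for the same time. In these mice a tamoxifen-dependent Cre, driven by the keratin 14 promoter of basal keratinocytes, deletes the floxed Sox2 gene. Both groups therefore carried chemically induced papillomas and received tamoxifen, and the genotype of the controls was not given beyond the word control. Age, sex and strain of the mice were not given either. The 3 arrays of a group came from 3 biological experiments, per the series' design text. Cells were sorted as living, Epcam-positive and alpha6-positive, and those bearing CD45, CD31 or CD140a were left out. The comparison asks what the loss of Sox2 does to gene expression in these tumour cells.

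Entry into mitosis is set off by the kinase CDK1 bound to A-type and B-type cyclins, which Cdc25 phosphatases switch on. Polo-like kinase 1 and the Aurora kinases then build the spindle and correct its attachments, BUB1 signals unattached kinetochores, and CDC20 activates the anaphase-promoting complex that destroys cyclin B and securin. FOXM1 and the MuvB complex with B-Myb drive transcription of many of these genes in late G2, so their RNA marks cells that are close to dividing. The basal layer of the epidermis and of papillomas holds most of the dividing keratinocytes. In bulk RNA such as this, fewer dividing cells and less RNA per dividing cell cannot be told apart.

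Promoter windows were found in RefSeq (GRCm38.p6) for 6 of the 10 members, each from 250 bases before the transcription start to 50 after it. They are shown because they hold, near the start, the letters that genes of this phase are known for: the cell cycle homology region (CHR), bound by MuvB complexes, and the CCAAT box, bound by NF-Y. Capitals mark TTTGAA (the CHR), TTCGAA (a CHR variant) and CCAAT, with ATTGG where the box lies on the other strand. Positions count the start as 1 and the base before it as -1.
Ccnb2, chr9:70421525-70421654, minus strand, bases -100 to 30: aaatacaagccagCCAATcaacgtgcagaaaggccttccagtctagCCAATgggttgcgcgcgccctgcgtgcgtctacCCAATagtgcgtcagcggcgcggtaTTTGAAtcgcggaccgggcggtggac
Cdk1, chr10:69352883-69353012, minus strand, bases -100 to 30: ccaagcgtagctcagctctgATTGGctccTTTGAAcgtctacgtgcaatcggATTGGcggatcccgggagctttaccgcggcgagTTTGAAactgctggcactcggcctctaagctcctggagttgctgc
Cdc20, chr4:118437314-118437443, minus strand, bases -100 to 30: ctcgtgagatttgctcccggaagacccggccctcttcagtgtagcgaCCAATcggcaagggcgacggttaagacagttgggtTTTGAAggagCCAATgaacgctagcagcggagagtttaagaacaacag
Bub1, chr2:127831830-127831959, minus strand, bases -100 to 30: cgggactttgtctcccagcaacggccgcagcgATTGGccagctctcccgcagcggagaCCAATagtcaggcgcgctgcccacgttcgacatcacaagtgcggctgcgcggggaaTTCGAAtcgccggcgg
Plk1, chr7:122159335-122159434, plus strand, bases -100 to -1: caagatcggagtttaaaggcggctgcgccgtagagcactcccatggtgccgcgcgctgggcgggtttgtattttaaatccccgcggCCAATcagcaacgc
Plk1, chr7:122159449-122159478, plus strand, bases 15 to 44: cgttcccagcgccgcgTTTGAAttcgggga
Aurka, chr2:172370571-172370670, minus strand, bases -100 to -1: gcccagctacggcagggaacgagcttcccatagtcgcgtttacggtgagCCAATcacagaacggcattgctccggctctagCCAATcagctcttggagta
Aurka, chr2:172370527-172370556, minus strand, bases 15 to 44: tattttaaaaggagaaccTTTGAAttgtaa

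TTTGAA was found on either strand in 5 of the 6 windows, against 17.9% of all 32851 windows in the table. It lay at bases 5 to 10 in Ccnb2, -15 to -10 in Cdk1, -18 to -13 in Cdc20, 31 to 36 in Plk1 and 33 to 38 in Aurka. Ccnb2 held it again at -167 to -162 and Cdk1 at -71 to -66. The Bub1 window held instead TTCGAA, a palindrome found in 1.56% of all windows and searched for after the sequences had been seen.

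CCAAT was found on either strand in all 6 windows, with 13 matches in all, against 37.4% of all windows. At least 2 boxes were present in 5 of the 6 windows, where 11.7% of all windows had as many, and Plk1 had 1. Both TTTGAA and CCAAT were present in 5 of the 6 windows and in 6.95% of all windows, and no match of one overlapped a match of the other. An E2F site (TTTCCCGC, TTTGGCGC or TTTCGCGC) was found in Cdk1 alone, against 1.84% of all windows. The forkhead letters TAAACA were found in 0 of the 6 (13.4% of all windows). The SOX letters ACAAAG or ACAATG were found in Bub1 and Ccnb2 (28.6% of all windows). Matches of letters describe these windows and are not binding sites.

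As a check of the labels, Sox2 read 7.19, 8.31 and 8.18 in CTRL and 4.07, 4.63 and 3.23 in Sox2cKO, so every Sox2cKO array lay below every CTRL array. The cells carried the markers of the sort and of basal keratinocytes: Itga6 read 12.07 to 12.45, Krt5 13.32 to 13.45 and Epcam 10.57 to 11.43 over the 6 arrays. Array medians lay between 5.42 and 5.46. Xist was high in CTRL replicates 2 and 3 alone (12.03 and 11.85, against 6.08 to 7.54), and the Y-linked gene Eif2s3y ran the opposite way. CTRL replicates 2 and 3 thus had a female pattern and the other 4 arrays a male one.

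None of the 10 mitotic genes passed the threshold between Sox2cKO and CTRL, while 9 of the 10 had a lower mean in Sox2cKO. The median log2 difference (Sox2cKO minus CTRL) of the 10 was -0.25, against 0.00269 over all 13222 genes, of which 49.4% had a lower mean. With limma and Benjamini-Hochberg adjustment over all genes, 0 of 10 members had an adjusted p under 0.05 (each 0.999), and over all genes the share was 0%. At an unadjusted p under 0.05 there was 1 member, Cdc25c, against 2.68% of all genes. That count was 0 without CTRL replicate 2 (200 of all 13222 genes), without Sox2cKO replicate 1 (382) or without Sox2cKO replicate 2 (632). Without Sox2cKO replicate 3 it was 2 (525 of all genes). With a covariate for the Xist pattern, which leaves CTRL replicate 1 alone for comparison, the Cdc25c difference was -0.43. All 3 Sox2cKO arrays lay below all 3 CTRL arrays in 1 member, again Cdc25c, against 3.12% of all genes. An exact two-sided permutation test on 3 against 3 arrays cannot give a p below 0.1. With a trend and robust variance in limma, 0 members passed as well.

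**Figure D1:**
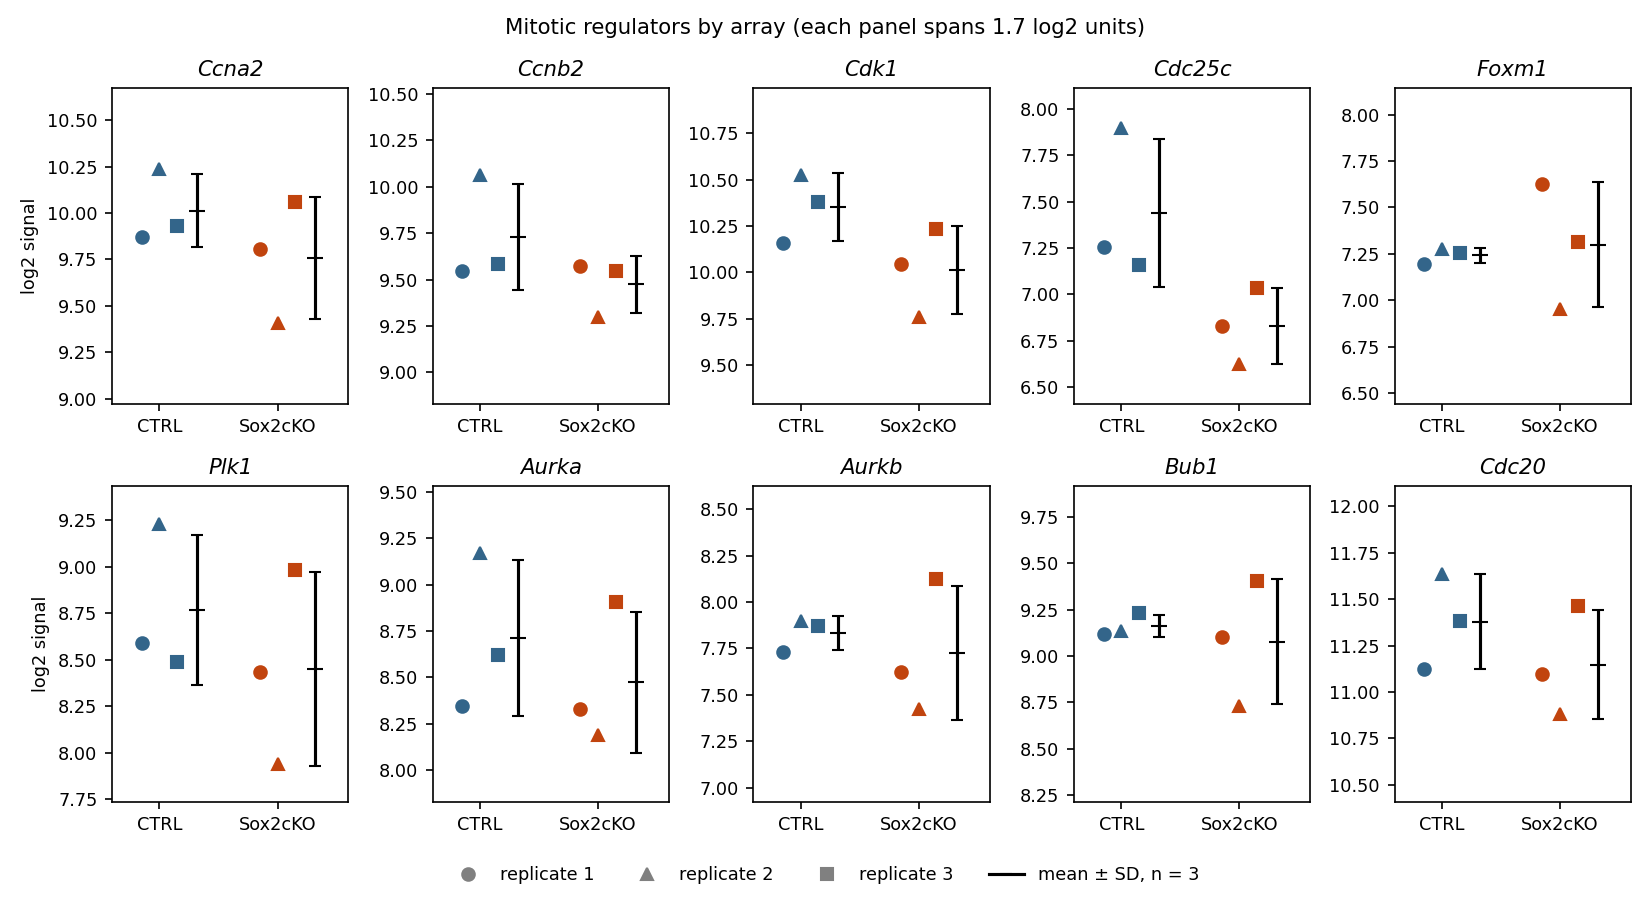
The log2 signal of each member is plotted for the 3 CTRL and 3 Sox2cKO arrays, with the mean and SD of each group (n = 3) at its right, and every panel spans the same height. Sox2cKO replicate 2 (the red triangle) is the lowest array in all 10 panels, and the groups do not overlap in Cdc25c alone.

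Cdk1 encodes the kinase that starts mitosis. Its only probe set read 10.16, 10.52 and 10.38 in CTRL replicates 1 to 3 and 10.04, 9.76 and 10.23 in Sox2cKO replicates 1 to 3. The groups overlapped, because Sox2cKO replicate 3 read above CTRL replicate 1. The log2 difference was -0.34 with a standard error of 0.17 and a 95% interval of -0.73 to 0.05 in limma (adjusted p = 0.999).

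Ccna2, the A-type cyclin that works with CDK2 in S phase and with CDK1 in G2, read 9.87, 10.24 and 9.93 in CTRL and 9.80, 9.41 and 10.06 in Sox2cKO. Sox2cKO replicates 1 and 2 lay below all CTRL arrays, and replicate 3 lay above 2 of them. The difference of the gene's probe set was -0.25 (95% interval -0.71 to 0.20), and its second probe set gave -0.30. Ccnb2, a B-type cyclin, read 9.55, 10.06 and 9.58 in CTRL and 9.58, 9.30 and 9.55 in Sox2cKO. CTRL replicate 2 stood above the 5 other arrays and Sox2cKO replicate 2 below them, and the other 4 arrays lay within 9.55 to 9.58. The difference was -0.26 (95% interval -0.66 to 0.15).

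Cdc25c, the phosphatase that removes inhibitory phosphates from CDK1, showed the largest difference of the 10. Its probe set 1456077_x_at read 7.26, 7.89 and 7.16 in CTRL and 6.83, 6.63 and 7.03 in Sox2cKO, 1.52-fold lower on average. All 3 Sox2cKO arrays lay below all 3 CTRL arrays, with 7.03 and 7.16 as the nearest values. The log2 difference was -0.61 with a standard error of 0.22 and a 95% interval of -1.12 to -0.09. Its unadjusted limma p was 0.0265 and its adjusted p 0.999, and an exact permutation test (two-sided) gave the lowest p it can, 0.1.

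The second Cdc25c probe set, 1422252_a_at, read 7.06, 7.62 and 7.05 in CTRL and 6.88, 6.84 and 6.87 in Sox2cKO. The groups did not overlap there either, as in 2 of the 17 tested member probe sets against 3.16% of all probe sets tested. The difference of 1422252_a_at was -0.38 with a standard error of 0.18. Its unadjusted limma p in the fit of all probe sets was 0.0687, above 0.05. The suffix x marks a probe set some of whose probes also match other sequences, so the larger of the 2 differences comes from the less specific set. Without CTRL replicate 2 the difference of the first set was -0.38 as well. With the replicate number as a block its unadjusted p was 0.0502, so that 0 members were left at an unadjusted p under 0.05, against 4.96% of all genes in that fit.

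Foxm1, the forkhead factor that transcribes many genes of G2 and mitosis, was the only member with a higher mean in Sox2cKO. Probe set 1448833_at read 7.20, 7.28 and 7.25 in CTRL and 7.63, 6.96 and 7.32 in Sox2cKO. The CTRL arrays lay within 0.08 of each other, and the Sox2cKO arrays lay on both sides of them. The difference was 0.06 with a 95% interval of -0.36 to 0.48.

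The other 2 tested Foxm1 probe sets had differences of -0.06 (1417748_x_at) and -0.22 (1448834_at), so the direction for Foxm1 depends on the probe set. Sox2cKO replicate 2 was the lowest array in all 3. Sox2cKO replicate 1 was the highest in 2 of them, and CTRL replicate 2 was the highest in 1448834_at, which read 6.03, 6.50 and 5.94 in CTRL and 6.04, 5.60 and 6.16 in Sox2cKO. One further probe set, 1437138_at, read 3.21 to 3.43 over the arrays and did not pass the filter.

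Plk1, the Polo-like kinase of mitotic entry and spindle assembly, read 8.59, 9.23 and 8.49 in CTRL and 8.43, 7.94 and 8.98 in Sox2cKO. It had the widest range of the 10, 1.30 log2 units, between CTRL replicate 2 and Sox2cKO replicate 2. Its within-group SD of 0.47 exceeded that of 91.8% of all genes tested. The difference of -0.32 had a 95% interval of -1.03 to 0.39.

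Aurka, the Aurora kinase of the spindle poles, read 8.34, 9.17 and 8.62 in CTRL and 8.33, 8.19 and 8.90 in Sox2cKO. The difference was -0.24 (95% interval -0.86 to 0.38), and the arrays of the 2 groups were interleaved. A second probe set, 1440129_at, read 3.90 to 4.28 and did not pass the filter. Aurkb, the Aurora kinase of the chromosomal passenger complex, read 7.73, 7.90 and 7.87 in CTRL and 7.62, 7.42 and 8.12 in Sox2cKO. Its highest and its lowest array were both Sox2cKO arrays, and the difference was -0.11 (95% interval -0.56 to 0.34), with -0.09 in its second probe set.

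Bub1, the checkpoint kinase of the kinetochore, read 9.12, 9.14 and 9.23 in CTRL and 9.10, 8.73 and 9.40 in Sox2cKO. As in Aurkb, the 3 CTRL arrays lay between Sox2cKO replicates 2 and 3. The difference was -0.08 (95% interval -0.51 to 0.34), and the second probe set, 1438571_at, read 3.84 to 4.57 and did not pass the filter. Cdc20, the activator of the anaphase-promoting complex, read 11.12, 11.64 and 11.38 in CTRL and 11.10, 10.88 and 11.46 in Sox2cKO. Its difference was -0.23 (95% interval -0.69 to 0.23), and its other 2 probe sets gave -0.25 and -0.20.

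**Figure D2:**
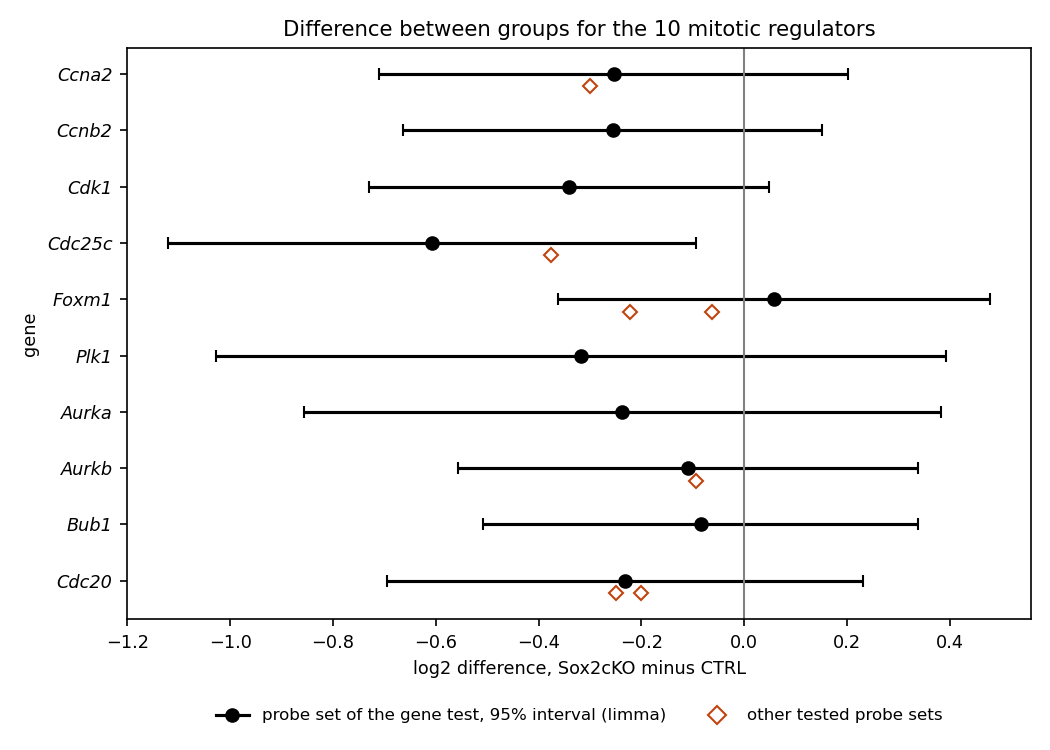
The horizontal axis gives the log2 difference, Sox2cKO minus CTRL, of each member (filled points, with 95% limma intervals from 3 against 3 arrays), and open diamonds give the other tested probe sets. Every interval but that of Cdc25c (-1.12 to -0.09) includes 0, and the Foxm1 probe sets lie on both sides of 0.

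In 10 of the 10 members the range of the arrays within at least 1 group was wider than the difference between the group means. The share over all genes was not computed for this count, so it is not a trait of the members. Sox2cKO replicate 2 was the lowest array in 10 of 10 members, while it was the lowest in 18.0% of all genes tested. CTRL replicate 2 was the highest array in 7 of 10 members, against 23.5% of all genes. The exceptions were Foxm1, highest in Sox2cKO replicate 1, and Aurkb and Bub1, highest in Sox2cKO replicate 3.

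Averaged over the 10 members after each gene's mean was subtracted, the log2 level was -0.05, 0.36 and 0.05 in CTRL replicates 1 to 3 and -0.10, -0.42 and 0.16 in Sox2cKO replicates 1 to 3. Sox2cKO replicate 3 thus lay above 2 of the 3 CTRL arrays. The pairs of equal replicate number did not agree in direction. For number 2, 10 of 10 members were lower in Sox2cKO (median -0.76). For number 1 it was 8 (median -0.05) and for number 3 only 3 (median 0.11).

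Over the 6 arrays the 45 pairs of members had a median Pearson correlation of 0.82, from 0.09 to 0.97, where all pairs share the same arrays. Ccna2 followed the mean of the other 9 members most closely (0.99) and Foxm1 least (0.31). The median within-group SD of the members was 0.27, against 0.19 over all genes tested, and those of single members lay between the percentiles 57.3 and 91.8 of all genes.

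**Figure D3:**
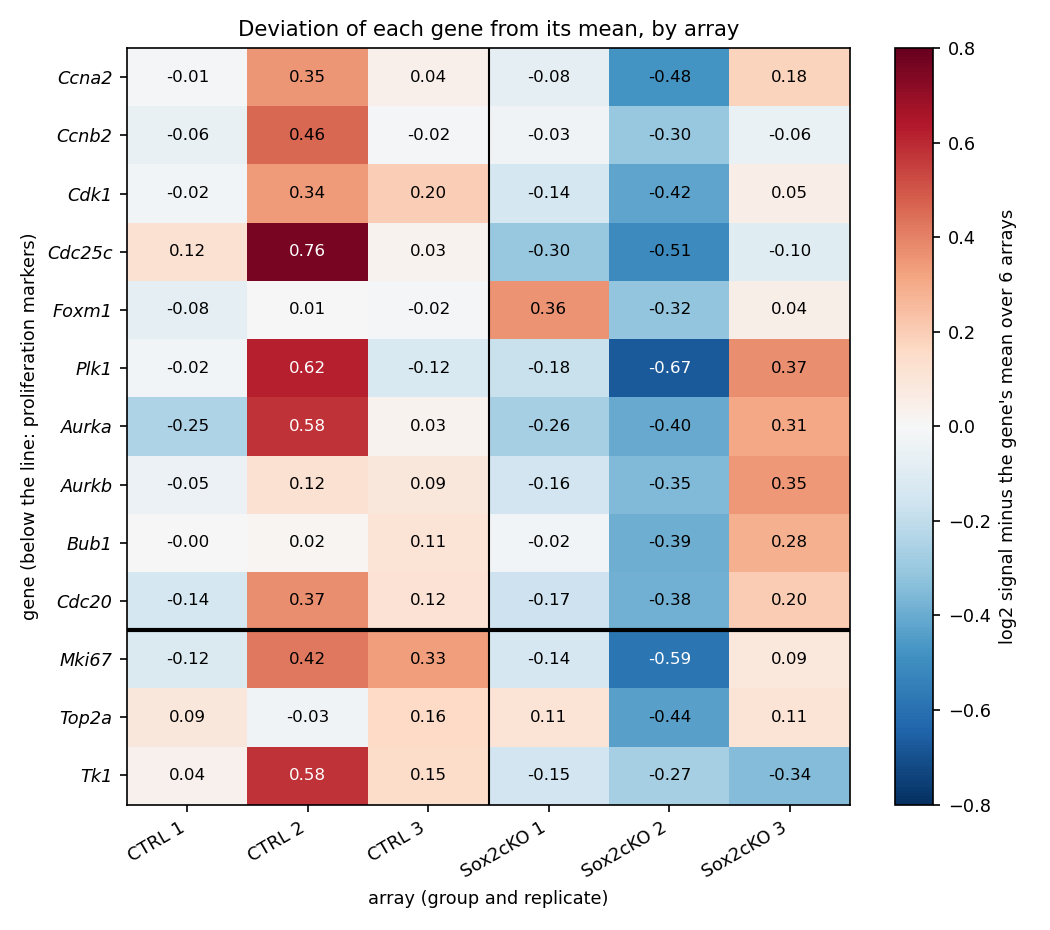
Each cell gives a gene's log2 signal in an array (columns) minus that gene's mean over the 6 arrays, for the 10 members and, below the line, 3 proliferation markers. The Sox2cKO 2 column is below 0 in every row, and the CTRL 2 column is above 0 in every row but Top2a (-0.03).

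Leaving out single arrays moved the group difference accordingly. Without Sox2cKO replicate 2 the median of the 10 members was -0.09, and Aurkb, Bub1 and Foxm1 had higher means in Sox2cKO. Without CTRL replicate 2 the median was -0.09 as well. Without Sox2cKO replicate 3 it was -0.40, and in 8 of 10 members both remaining Sox2cKO arrays lay below all CTRL arrays, against 8.48% of all genes in that comparison. Without CTRL replicate 1 the median was -0.35, with groups apart in 3 members against 8.15% of all genes. No member passed the adjusted threshold with any array left out. With a covariate for the Xist pattern, which compares the Sox2cKO arrays with CTRL replicate 1 alone, the median was -0.06, and 7 of 10 members were lower.

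**Figure D4:**
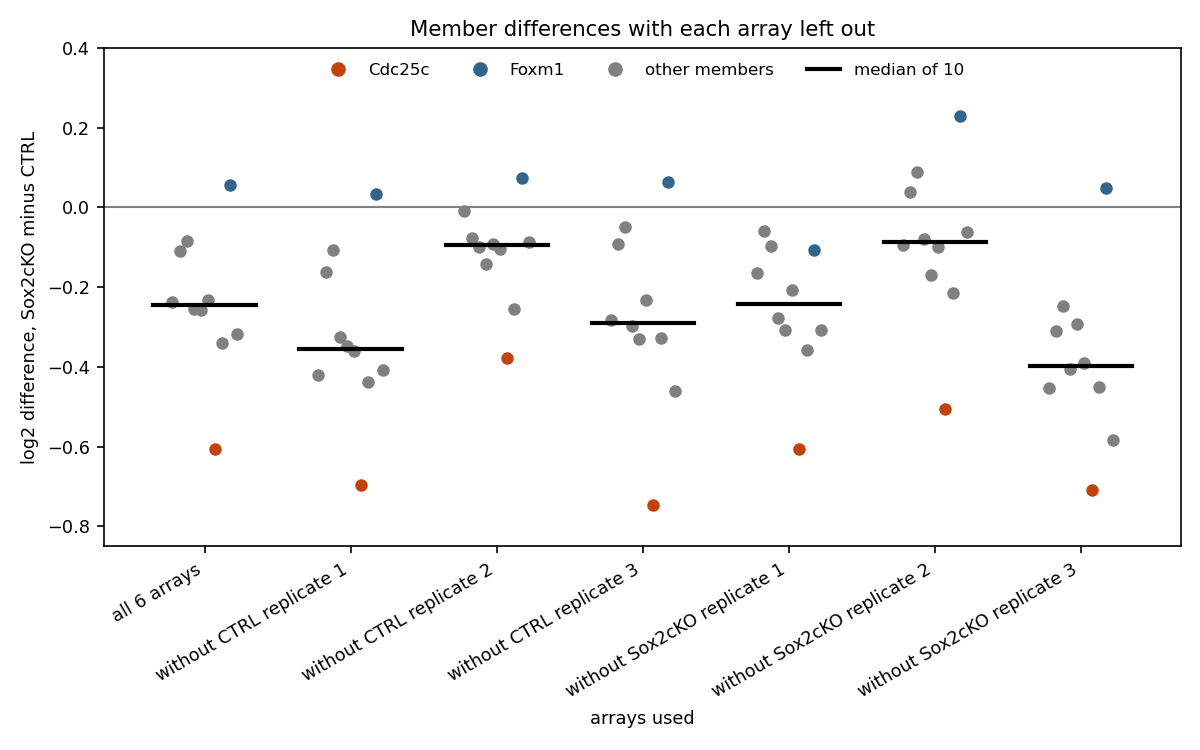
The vertical axis gives the log2 difference, Sox2cKO minus CTRL, of each of the 10 members with all 6 arrays and with each array left out in turn, and black bars are medians. The median moves between -0.40 without Sox2cKO replicate 3 and -0.09 without replicate 2 of either group, and Cdc25c is the lowest point in each column.

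Markers of other cells also varied between these arrays, and their part in the member values was not tested. The 12 tested fibroblast and pericyte markers, of 15 listed, all had higher means in Sox2cKO, with 0 past the threshold. Their summed level, averaged over the 14 on the array after each gene's mean was subtracted, was -0.90 to -0.22 in CTRL and -0.03 to 1.12 in Sox2cKO. The highest value was in Sox2cKO replicate 3, the Sox2cKO array with the highest member level. The next highest, 0.26, was in Sox2cKO replicate 2, the array with the lowest member level. CTRL replicate 2, with the highest member level, was at -0.24. Of the 14 leukocyte markers 10 were tested. The level over the 13 on the array was -0.08 to 0.00 in CTRL and -0.08 to 0.20 in Sox2cKO. Of 8 endothelial markers 5, Pecam1, Cdh5, Tek, Emcn and Vwf, did not exceed the filter level in any array.

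Suprabasal keratinocyte markers, the genes of cells that have left the dividing layer, also varied between arrays. Of the 10 tested, 9 had higher means in Sox2cKO and 1 a lower one (median 0.36), with 0 past the threshold. Their level over 11 genes was 0.48, -0.65 and -0.42 in CTRL replicates 1 to 3 and 0.60, 0.44 and -0.46 in Sox2cKO replicates 1 to 3. The 3 arrays with the lowest suprabasal level, CTRL replicates 2 and 3 and Sox2cKO replicate 3, were the 3 with the highest member level. Basal keratinocyte markers moved far less. Their level was 0.03 to 0.07 in CTRL and -0.10 to 0.01 in Sox2cKO, ranges that lay close together without overlap. Of these 8 genes, 5 had lower and 3 higher means in Sox2cKO, with a median log2 difference of -0.0036. The signal at the 3' end of the beta-actin control transcript minus that at its 5' end, a sign of RNA quality, was 0.765, 0.789 and 0.816 (log2) in those same 3 arrays and 0.561 to 0.662 in the others. The same measure for Gapdh was lowest in Sox2cKO replicate 2 (-0.028) and highest in Sox2cKO replicate 3 (0.138). The part of these lists and of RNA quality in the member values was not tested.

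The genes that act with the members were taken from 9 lists, which held 108 tested genes. With limma 0 of the 108 passed the adjusted threshold and 4 had an unadjusted p under 0.05, all 4 with lower means in Sox2cKO, where the share over all genes was 2.68% (171 lower of 354). Of the 108, 78 had a lower mean in Sox2cKO (49.4% of all genes), with a median of -0.09. In 7 the groups were apart and Sox2cKO lower (3.12% of all genes). Standard errors follow each difference named below, and each adjusted p was 0.999.

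Among genes that control CDK1, 10 of 13 tested had lower means in Sox2cKO (median -0.15). Pkmyt1, a membrane kinase that inhibits CDK1, read 8.22, 8.53 and 8.35 in CTRL and 8.13, 7.91 and 8.09 in Sox2cKO, with groups apart and a difference of -0.32 ± 0.13. Wee1, the nuclear kinase with the same role, differed by -0.39 ± 0.31 and Gadd45a, a stress-induced inhibitor of CDK1, by -0.35 ± 0.22. Cdkn1a, which encodes the CDK inhibitor p21, read higher in Sox2cKO, by 0.40 ± 0.18, and the groups overlapped. Both the activating phosphatase Cdc25c and the inhibiting kinase Pkmyt1 were therefore among the genes that read lower in every Sox2cKO array.

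Partners of the Aurora kinases had lower means in 8 of 9 genes (median -0.21). Birc5, which encodes survivin, differed by -0.32 ± 0.17, Incenp, the scaffold of the passenger complex, by -0.34 ± 0.22, Cdca8, which encodes borealin, by -0.28 ± 0.19, and Bora, which helps AURKA switch on PLK1, by -0.21 ± 0.14. In none of the 9 were the groups apart. Other Polo-like and NIMA-related kinases had lower means in 7 of 11 (median -0.02), with Plk4, the kinase of centriole duplication, at -0.31 ± 0.18, Nek2 at -0.26 ± 0.19, Nek6 at -0.22 ± 0.15 and Nek4 at 0.37 ± 0.18.

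Spindle checkpoint genes had lower means in 7 of 8 (median -0.19). Bub1b, which encodes the BubR1 protein of the checkpoint complex, differed by -0.56 ± 0.28, where Bub1 differed by -0.08, and the difference between these genes was not tested. It read 8.48, 9.54 and 9.14 in CTRL and 8.58, 8.20 and 8.71 in Sox2cKO, so the groups overlapped at CTRL replicate 1. Knl1, the kinetochore platform for BUB1, differed by -0.36 ± 0.17, the kinase gene Ttk by -0.34 ± 0.24 and Mad2l1, which encodes MAD2, by -0.29 ± 0.20.

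The anaphase-promoting complex and its regulators had lower means in 13 of 18 (median -0.06). Its leading genes were the subunit gene Cdc26 (-0.31 ± 0.19), the inhibitor gene Fbxo5 (-0.27 ± 0.20) and the ubiquitin-conjugating enzyme genes Ube2c (-0.24 ± 0.20) and Ube2s (-0.15 ± 0.12). Among securin, separase, shugoshins and cohesin 8 of 13 had lower means (median -0.05). Sgo2a, a shugoshin that protects centromeric cohesion, read 7.25, 7.83 and 7.50 in CTRL and 6.86, 7.03 and 6.94 in Sox2cKO (-0.58 ± 0.17). Espl1, which encodes separase, the protease that opens cohesin, read 7.77, 7.98 and 7.50 in CTRL and 7.39, 7.30 and 7.36 in Sox2cKO (-0.40 ± 0.15). In both genes the groups were apart, and Sox2cKO replicate 3 lay between the other 2 Sox2cKO arrays. Sgo1 (-0.43 ± 0.22) and Cdca5, which encodes sororin (-0.44 ± 0.26), had overlapping groups, and the securin gene Pttg1 differed by 0.01 ± 0.16.

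Genes of the MuvB core, B-Myb and the pocket proteins, several of which act at the CHR, had lower means in 10 of 13 (median -0.09). Mybl2, which encodes B-Myb, differed by -0.28 ± 0.25, Rbbp4 by -0.17 ± 0.11 with groups apart, Lin37 by -0.23 ± 0.19, the pocket protein gene Rbl2 by 0.18 ± 0.14 and Mybl1 by 0.57 ± 0.45. Other forkhead genes had lower means in 9 of 17 tested of 26 listed (median -0.04), led by Foxp4 (-0.28 ± 0.14), Foxc1 (-0.49 ± 0.29), Foxq1 (-0.29 ± 0.18) and Foxp1 (-0.15 ± 0.18), and in 0 of them were the groups apart.

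All 6 proliferation markers had lower means in Sox2cKO, against 49.4% of all genes. Their differences ran from -0.51 to -0.04 (median -0.11), and 1 had an unadjusted limma p under 0.05 (2.68% of all genes). Tk1, thymidine kinase of the S phase, read 9.79, 10.33 and 9.90 in CTRL and 9.60, 9.48 and 9.41 in Sox2cKO, a difference of -0.51 ± 0.17 with groups apart. Mki67, the nuclear antigen of all cycling phases, read 10.67, 11.21 and 11.12 in CTRL and 10.65, 10.20 and 10.87 in Sox2cKO (-0.42 ± 0.22), and its lowest and highest arrays were those of most members. Top2a, the topoisomerase that untangles chromosomes, differed by -0.14 ± 0.18 and Mcm2, a subunit of the replication helicase, by -0.07 ± 0.19.

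**Figure D5:**
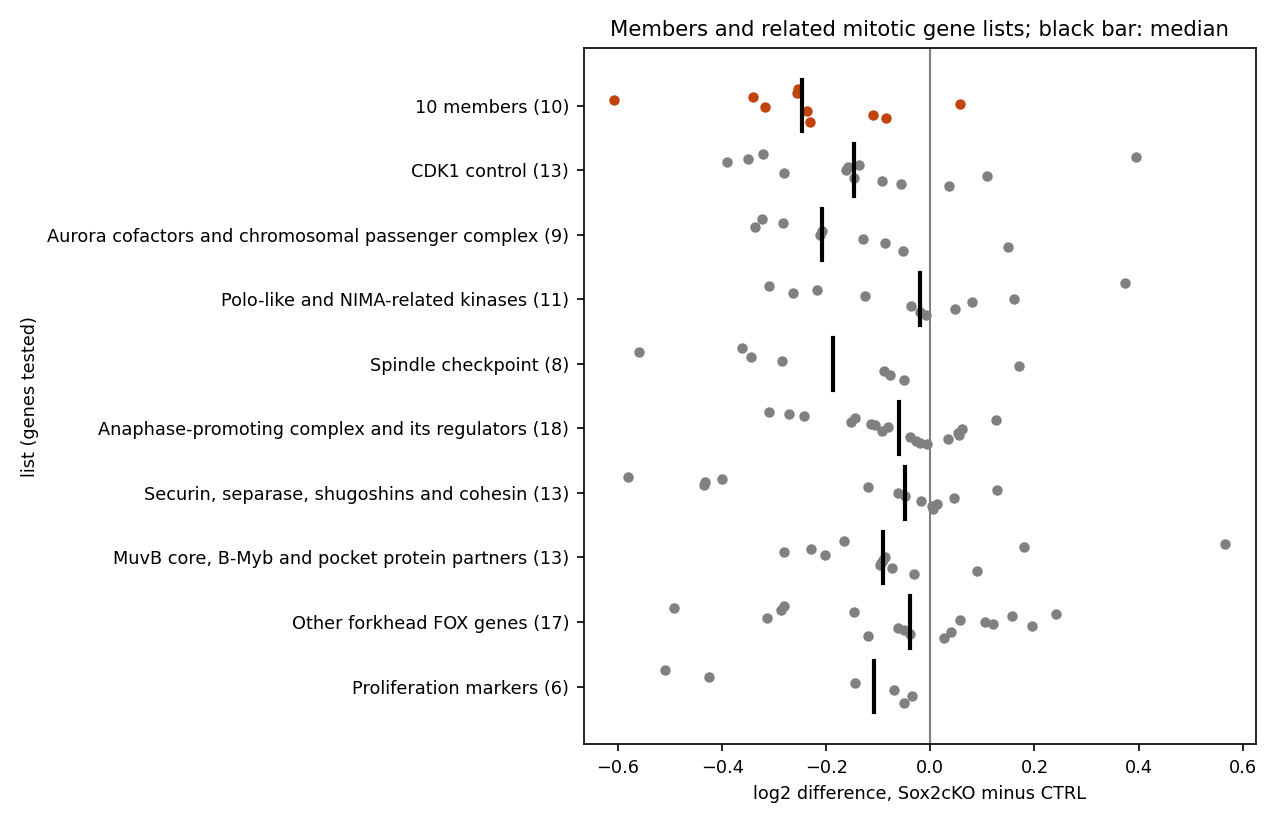
The horizontal axis gives the log2 difference, Sox2cKO minus CTRL, of each tested gene in the 10 members (red) and in 9 related lists (grey), and black bars are medians. The median of the members (-0.25) is the lowest of the 10 medians, and every list but the proliferation markers has genes on both sides of 0. Members and lists were chosen with earlier results of these data known, so this rank is a description only.

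The genes whose levels ran most like the mean of the 10 members over the 6 arrays were Jag2, Haus1, Cenpn, Chek1, Cenpf, Timp1, Ruvbl1 and Mtss2, with Pearson correlations of 0.988 to 0.997 over 6 arrays. Haus1 is a subunit of the spindle-building augmin complex, Cenpn and Cenpf encode centromere and kinetochore proteins, and Chek1 the checkpoint kinase that holds back CDC25. Jag2 encodes a Notch ligand and Timp1 an inhibitor of matrix metalloproteinases. Chek1 read 7.94, 8.35 and 8.09 in CTRL and 7.84, 7.53 and 8.14 in Sox2cKO, and Jag2 read 9.06, 9.40 and 9.11 in CTRL and 9.00, 8.71 and 9.26 in Sox2cKO. Both had the order of arrays seen in the member mean. In all, 210 of 13212 other genes (1.59%) had a correlation above 0.9 and 238 one below -0.9, and how many chance gives over 6 arrays was not tested.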

How the data were processed

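The deposited table held 45101 probe sets on 6 arrays, as log2 values by their range (no source used here names the scale). The authors used R 2.14.0, per the submitters' processing notes, and how they corrected background, summarised probes and normalized is not given in the sources used here. Arrays share a common scale, so a shift of most genes together would not be seen, and low values flatten towards background. RNA was amplified from its 3' end, per the labels' protocols.

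The 64 control probe sets were left out. Names came from the platform annotation (34945 probe sets with 1 symbol, 932 with several, the rest unnamed). Probe sets above the 40th percentile of the array (4.90 to 4.94) on at least 3 arrays were tested, and the set with the highest mean stood for its gene, while all member sets were also fitted among 23534 probe sets. Sox2cKO minus CTRL was tested two-sided with limma 3.58.1 (R 4.3.3), without block, after a check on simulated data. Adjusted p are Benjamini-Hochberg over 13222 genes, threshold 0.05. The number of arrays limits the precision.

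Across all genes tested, same-numbered arrays deviated together (correlation 0.206 to 0.288 for the 3 pairs). Each lay above the level of 0.1 set for pairing, although the labels do not say what a number marks. Over the members alone the correlation was 0.61, 0.05 and -0.18 for numbers 1 to 3, so only number 1 exceeded that level. Members, lists and tests were chosen with earlier results of these data known. The genes named are all members, up to 4 genes of smallest unadjusted p per list, Birc5, Mybl2, Pttg1, Mki67 and Top2a, and the 8 most and 4 least like the member mean. Alternatives covered the block, the Xist pattern, filters, probe sets, an added offset, variance settings, scaling and each array left out. A planned comparison of protein sequences was not run, and Ccnb1, also on the list, was not analysed here.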

Additional observations from a re-analysis of the deposited data

How the results depend on the processing

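Of the 160 member differences recomputed under 16 alternatives, 154 kept their direction, 6 reversed and 0 passed the threshold. The replicate block, the changed filters, the fit of single probe sets and the variance settings left every member difference unchanged. Their agreement in direction therefore says nothing about robustness, and all 6 reversals came from the other alternatives. Aurka turned to 0.13 and Cdc20 to 0.025 with the covariate for the Xist pattern, and Foxm1 to -0.075 as the mean of its tested probe sets. With single arrays left out, Aurkb ranged from -0.31 (without Sox2cKO replicate 3) to 0.040 (without Sox2cKO replicate 2), Bub1 from -0.25 to 0.089 (the same arrays), and Foxm1 from -0.11 (without Sox2cKO replicate 1) to 0.23 (without Sox2cKO replicate 2). The cause was not tested. The count of members past the adjusted threshold was 0 in all 16, and the median of the members stayed below 0, from -0.40 to -0.06. Leaving out single arrays put the count of members lower with groups apart between 1 and 8, where fewer arrays make groups apart easier to reach. With the replicate block the median was -0.25 and the lowest adjusted p of a member 0.979, so the pairing changed no adjusted call. Within 50 bases of the start the windows with a CHR and a CCAAT box were 5 and 6 of 6 again (4.94% and 13.6% of all windows). Those with an E2F or SOX site were 0 (0.64% and 9.34% of all windows). The 3 arrays in each group limit what can be detected: the 95% intervals of the members reached 1.12 log2 units below 0.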

Other observations

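Other cell types in the sorted fraction varied between arrays. Markers of Langerhans cells and MHC class II had lower means in Sox2cKO in 4 of 5 genes (median -1.09), with a level of 0.09 to 0.80 in CTRL and -0.85 to 0.09 in Sox2cKO. Sebocyte markers had lower means in 4 of 5 tested genes (median -0.62). Their level over the 6 genes on the array was highest, at 1.11, in CTRL replicate 2, the array in which 7 members were highest. It was next highest, at 0.22, in Sox2cKO replicate 2 and lowest, at -0.78, in Sox2cKO replicate 3, so it did not follow the members there. Melanocyte markers had a level of 0.78 in Sox2cKO replicate 2, the array in which all 10 members were lowest, and -0.72 to 0.11 in the other arrays. The next highest level, 0.11, was in CTRL replicate 2, and the lowest, -0.72, in Sox2cKO replicate 3. No marker of these lists passed the adjusted threshold in limma, and their part in the member values was not tested.

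The genes that ran most against the member mean over the 6 arrays were Echdc1, Xpr1, Adam10 and Aagab, with Pearson correlations of -0.994 to -0.988 as a description. Their log2 differences between the groups were 0.09 to 0.30, and none passed the threshold (adjusted p 0.999 for each in limma).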
